A study of Homo sapiens with 24 samples.

Results

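The genes of the red cell membrane were followed by gene symbol through the gene count table. They were SLC4A1, ANK1, SPTB, EPB41, EPB42, GYPB, GYPC and GYPE, 8 of the 19475 genes listed, and all 8 symbols were found. They were described first in K562, a leukaemia line from chronic myeloid disease that has erythroid traits, and then in A549 (lung adenocarcinoma), H1299 (lung carcinoma) and THP-1 (acute monocytic leukaemia). The 24 libraries formed 8 groups of 3, CBX7 knockdown and control by label in each line. The label that describes the treatment names an siRNA against CBX7 for every library, controls included, whereas the protocol describes a lentiviral hairpin RNA, either shCBX7 or shCtrl. Both arms thus carried a hairpin vector by the protocol, and neither whether the cells were clones nor the time after infection is given in the sources used here.

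The red cell membrane is a lipid bilayer held to a spectrin skeleton. Band 3, the anion exchanger encoded by SLC4A1, spans the bilayer and exchanges chloride for bicarbonate, and ankyrin (ANK1) with protein 4.2 (EPB42) ties it to beta spectrin (SPTB). Protein 4.1 (EPB41) joins spectrin and actin at a second anchor that holds glycophorin C (GYPC), while glycophorin B (GYPB) carries the S and s blood group antigens and GYPE is a close relative of GYPB. These genes are known to be switched on at different times as erythroid precursors mature, and inherited defects in several of them cause spherocytosis or elliptocytosis.

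CBX7, a subunit of Polycomb repressive complex 1 and the gene targeted, went against the labels in all 4 lines. In K562 it had 37.6, 37.4 and 38.0 CPM (here the estimated count as a rate of the scaled library size) in the libraries labelled knockdown, against 12.5, 13.96 and 12.4 CPM in those labelled control. In A549 it averaged 53.6 CPM in libraries labelled knockdown and 6.15 CPM in controls, in H1299 384.6 CPM in libraries labelled knockdown and 30.4 CPM in controls, and in THP-1 38.5 CPM in libraries labelled knockdown and 16.8 CPM in controls. All 12 libraries labelled knockdown therefore lay above the controls of their own line, and below, higher and lower describe the libraries that carry the knockdown label, which held more CBX7 RNA. Estimated counts summed to between 71087023 and 132499841 per library. THP-1 knockdown replicate 2 stood further from its replicates than any other library, with a standard deviation of log2 differences of 0.43 against 0.21 to 0.30 elsewhere. Whether replicates came from separate cultures is not stated in the labels, so each p-value reflects the spread of these libraries alone and that spread may be technical.

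In K562, all 8 members were tested and all 8 passed an adjusted p of 0.05, with 6 higher in the libraries labelled knockdown and 2 lower. Band 3 rose about 10.1-fold, protein 4.2 and glycophorin B several-fold, and glycophorins E and C by less. Beta spectrin rose slightly, and ankyrin and protein 4.1 fell slightly. The background was wide: 56.5% of the 13876 genes tested in K562 passed, 28.9% higher and 27.5% lower, so passing does not set the members apart. The median log2 fold change was 0.60 over the 8 members and 0.01 over all tested genes. No member's libraries overlapped between the groups, as was so for 64.6% of all tested genes. Because these are bulk samples, fewer cells of a type and less RNA per cell cannot be told apart.

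The small changes depended on how the spread was estimated. When all 24 libraries were fitted together, 3 of the 8 calls were left in K562 (SLC4A1, GYPB and GYPE, all higher) and the log2 fold changes stayed within 0.03 of those from the K562 libraries alone. With Benjamini-Hochberg adjustment, the quasi-likelihood test of edgeR then gave adjusted p = 0.0504 for EPB42, 0.153 for EPB41, 0.169 for GYPC, 0.333 for ANK1 and 0.339 for SPTB. Below, tests within a line use its 6 libraries unless stated.

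**Figure D1:**
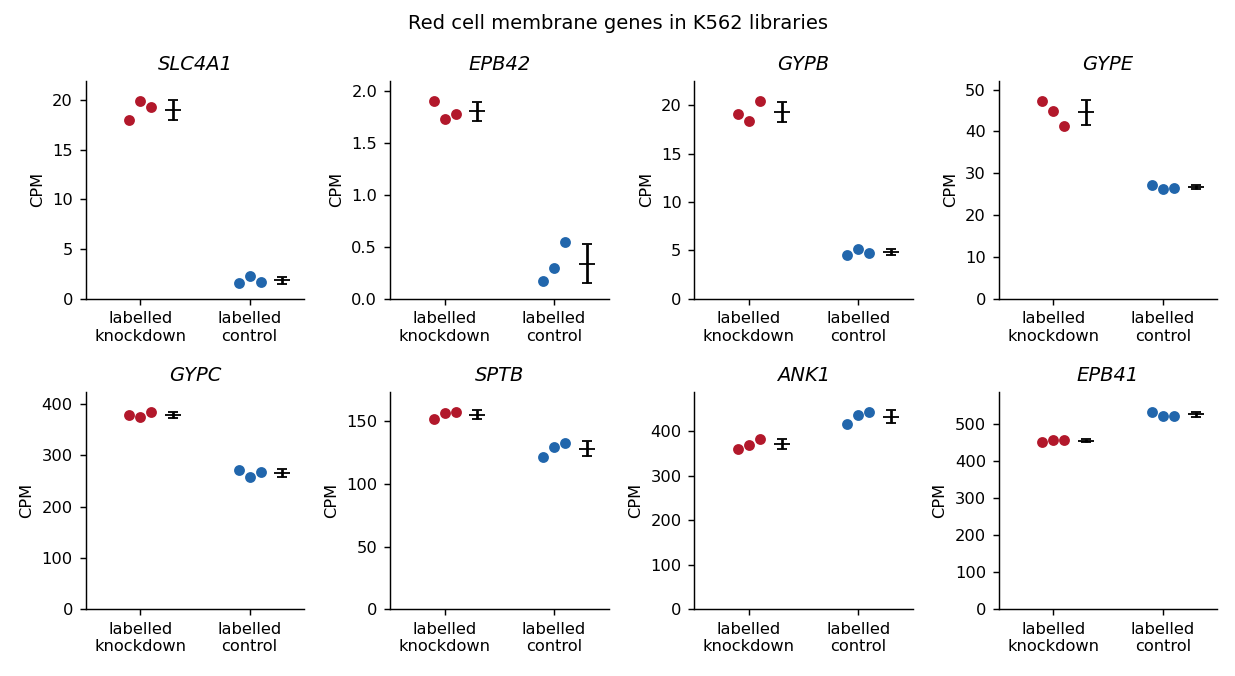
Level of each of the 8 genes in CPM (vertical axes from 0, each with its own range) in the 3 K562 libraries labelled knockdown (red) and the 3 labelled control (blue); black bars are mean and SD. No gene's groups overlap, SLC4A1 differs most (17.95 to 19.9 CPM labelled knockdown, 1.57 to 2.26 CPM labelled control), and ANK1 and EPB41 are the 2 genes with the red points below the blue.

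SLC4A1 encodes band 3, the most abundant integral protein of the mature red cell. It had 17.95, 19.9 and 19.3 CPM in K562 libraries labelled knockdown, against 1.57, 2.26 and 1.69 CPM in those labelled control. The lowest library labelled knockdown was thus far above the highest control, and the estimated counts behind the values were 1557 to 2065 in libraries labelled knockdown and 133 to 243 in controls. The log2 fold change was 3.34 ± 0.14 (SE), with an adjusted p of 4.18e-08 (quasi-likelihood test of edgeR, adjusted by Benjamini-Hochberg, as for each adjusted p below). Leaving out any single library gave 3.23 to 3.52.

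ANK1 encodes erythroid ankyrin, the adaptor between band 3 and spectrin. In K562 its levels were 360.9, 370.0 and 382.4 CPM in libraries labelled knockdown, against 416.4, 437.6 and 444.5 CPM in those labelled control. Every library labelled knockdown was below every control, by a narrow gap. The log2 fold change was -0.25 ± 0.04 (SE), adjusted p = 0.000519 by edgeR. SPTB, the beta spectrin to which ankyrin binds, had 151.2, 156.2 and 157.4 CPM in libraries labelled knockdown, against 121.0, 129.4 and 132.6 CPM in controls. It was higher in all 3 libraries labelled knockdown, with a log2 fold change of 0.25 ± 0.05 (SE) and an edgeR adjusted p of 0.00088. Ankyrin and the spectrin it binds therefore differed from the controls by a similar amount in opposite directions, and neither call held with all 24 libraries in 1 fit.

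EPB41 encodes protein 4.1, which stabilises the contact of spectrin with actin. It had 452.1, 456.8 and 458.4 CPM in K562 libraries labelled knockdown, against 534.4, 523.1 and 522.9 CPM in those labelled control. The groups were tight and apart, and the log2 fold change was -0.24 ± 0.03 (SE), adjusted p = 0.000145 by edgeR. Per the deposited transcript values, most EPB41 RNA in K562 was assigned to NM_001166007, whose coding sequence has 601 residues. Its share was 73.1 ± 16.0% in libraries labelled knockdown and 68.5 ± 9.64% in those labelled control (SD, n = 3 each), a difference well inside the spread between replicates.

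EPB42 encodes protein 4.2, which binds the cytoplasmic part of band 3 and ankyrin. In K562 it had 1.90, 1.73 and 1.78 CPM in libraries labelled knockdown, against 0.170, 0.298 and 0.545 CPM in those labelled control. These rest on 152 to 179 estimated counts in the libraries labelled knockdown and 20 to 43 in the controls, and the controls differed among themselves by more than the libraries labelled knockdown did. The log2 fold change was 2.40 ± 0.40 (SE), adjusted p = 0.000499 by edgeR, and ranged from 2.07 to 2.91 when single libraries were left out.

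The sequence before the EPB42 start is shown because the gene is nearly silent outside K562 and carries 2 kinds of match that are often looked for in erythroid promoters. RefSeq promoter windows (build GRCh38.p14) were searched from 250 to 31 bases before the annotated start, 220 bases in all, for AGATAA or TGATAA, the letters read by GATA factors, and for CCNCNCCC, a CACC-type box. Both strands were searched, the matches may overlap, and capitals mark them. The table of promoters matched 6 of the 8 members, SLC4A1 and ANK1 not being among them. The EPB42 window lies on the minus strand at chr15:43221049-43221268.
EPB42: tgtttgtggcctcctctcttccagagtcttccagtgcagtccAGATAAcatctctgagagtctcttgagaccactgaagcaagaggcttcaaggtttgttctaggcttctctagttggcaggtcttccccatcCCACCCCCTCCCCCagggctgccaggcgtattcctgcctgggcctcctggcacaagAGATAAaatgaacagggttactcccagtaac
The EPB42 window held 2 matches to AGATAA and 3 overlapping matches to the CACC-type letters. Of 35116 promoters searched in windows of the same length, 13.2% held a GATA match, 49.5% a CACC match and 3.13% both. A match describes these letters and shows no binding.

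GYPB and GYPE encode glycophorins whose genes are near-identical over long stretches, so that reads can be assigned to the wrong one. GYPB had 19.1, 18.3 and 20.5 CPM in K562 libraries labelled knockdown, against 4.54, 5.13 and 4.74 CPM in those labelled control. Its groups were far apart, with a log2 fold change of 1.98 ± 0.09 (SE) and an edgeR adjusted p of 4.86e-08. GYPE had 47.3, 44.9 and 41.4 CPM in libraries labelled knockdown, against 27.2, 26.3 and 26.5 CPM in controls. It was higher in all 3 libraries labelled knockdown, by 0.71 ± 0.06 (SE) on the log2 scale, with an edgeR adjusted p of 5.29e-06.

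The windows before GYPB and GYPE are shown side by side because they carry the same difficulty in their letters. Both are on the minus strand in GRCh38.p14, at chr4:144019376-144019595 for GYPB and chr4:143905590-143905809 for GYPE. Capitals mark the match to AGATAA.
GYPB: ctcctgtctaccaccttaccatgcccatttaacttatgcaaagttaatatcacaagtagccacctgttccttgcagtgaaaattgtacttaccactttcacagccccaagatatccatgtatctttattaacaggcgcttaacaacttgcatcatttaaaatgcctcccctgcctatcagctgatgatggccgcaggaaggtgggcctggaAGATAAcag
GYPE: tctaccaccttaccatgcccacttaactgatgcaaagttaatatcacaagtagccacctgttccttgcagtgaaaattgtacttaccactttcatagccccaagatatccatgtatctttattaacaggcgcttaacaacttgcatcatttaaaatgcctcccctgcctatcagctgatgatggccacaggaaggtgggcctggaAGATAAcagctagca
Of 214 aligned bases, 210 were identical (98.1%), and each window held 1 AGATAA and no CACC-type match. GYPB has a second annotated start whose window, shifted to chr4:144019411-144019630, held neither.

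GYPC encodes glycophorins C and D, which anchor protein 4.1 and carry the Gerbich antigens, and its sequence is unlike that of GYPB and GYPE. It had 378.2, 373.7 and 385.2 CPM in K562 libraries labelled knockdown, against 271.5, 257.3 and 268.0 CPM in those labelled control. All 3 libraries labelled knockdown were above the controls, with a log2 fold change of 0.48 ± 0.04 (SE) and an edgeR adjusted p of 2.26e-06. Its window is given for contrast with the others, since this is the member with the highest level and it is also active in THP-1. It lies on the plus strand of GRCh38.p14 at chr2:126655908-126656127, and capitals mark the CACC-type matches.
GYPC: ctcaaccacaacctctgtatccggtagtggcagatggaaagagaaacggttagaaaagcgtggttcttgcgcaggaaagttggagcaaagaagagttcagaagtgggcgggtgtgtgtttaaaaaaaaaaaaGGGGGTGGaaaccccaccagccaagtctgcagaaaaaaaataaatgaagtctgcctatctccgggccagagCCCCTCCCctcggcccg
The GYPC window held 2 CACC-type matches and no GATA match. Of the remaining members, SPTB had 1 start with 1 GATA and 3 CACC matches and another with 2 CACC matches, and both EPB41 starts had 4 CACC matches and no GATA match.

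By transcript, the higher GYPC level was in NM_002101. This form, whose coding sequence has 128 residues, was estimated at 641.7 TPM (a level that takes transcript length into account) in K562 libraries labelled knockdown and 427.4 TPM in those labelled control. NM_016815, with 109 residues, was at 55.2 TPM in libraries labelled knockdown and 61.8 TPM in controls. NM_002101 accordingly took 91.3%, 91.2% and 91.7% of GYPC TPM in libraries labelled knockdown, against 87.5%, 84.9% and 87.7% in controls. The shares did not overlap, at 91.4 ± 0.28% in libraries labelled knockdown and 86.7 ± 1.53% in controls (SD, n = 3 each). In THP-1 the same share was 86.5%, 86.95% and 87.9% in libraries labelled knockdown, against 57.1%, 61.1% and 70.6% in controls. NM_002101 stood there at 167.4 TPM in libraries labelled knockdown and 46.5 TPM in controls, and NM_016815 at 21.2 TPM in libraries labelled knockdown and 27.2 TPM in controls. These are the authors' estimates for overlapping transcripts, and no test was made across transcripts.

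**Figure D2:**
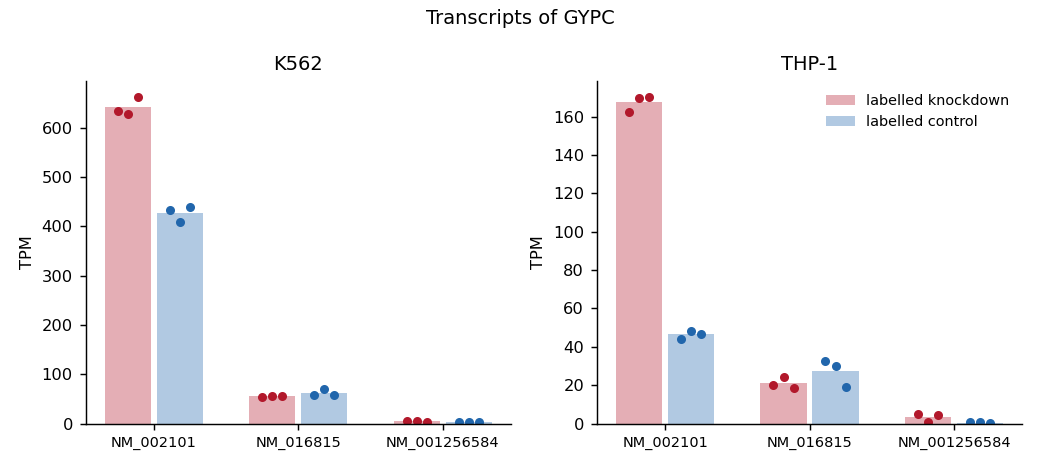
Estimated level of 3 GYPC transcripts in TPM (vertical axes from 0) in K562 and THP-1; bars are means of 3 libraries and points are libraries, labelled knockdown in red and labelled control in blue. NM_002101 is higher in the libraries labelled knockdown in both lines (641.7 TPM labelled knockdown and 427.4 TPM labelled control in K562, 167.4 TPM labelled knockdown and 46.5 TPM labelled control in THP-1), while NM_016815 is not.

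Levels per length put the members in an order within K562. By TPM summed over each gene's transcripts, libraries labelled knockdown had 701.9 ± 17.3 for GYPC, 190.5 ± 2.34 for EPB41, 109.8 ± 3.69 for ANK1, 84.2 ± 5.43 for GYPB, 67.99 ± 2.98 for GYPE, 51.5 ± 2.35 for SPTB, 8.90 ± 0.50 for SLC4A1 and 1.66 ± 0.11 for EPB42 (mean ± SD, n = 3). In libraries labelled control the order was GYPC at 492.8 ± 9.58 TPM, EPB41 at 221.1 ± 1.52, ANK1 at 128.0 ± 7.26, SPTB at 43.4 ± 2.67, GYPE at 39.7 ± 0.16, GYPB at 20.95 ± 1.54, SLC4A1 at 0.859 ± 0.18 and EPB42 at 0.304 ± 0.17. Neighbours in either order did not overlap between libraries. GYPB changed place, lying above GYPE and SPTB in the libraries labelled knockdown and below both in the controls. GYPC was 183rd of 19475 genes by mean TPM in libraries labelled knockdown and 264th in controls, whereas SLC4A1 was 9082nd in libraries labelled knockdown and 11641st in controls. Summed over the 8 members, TPM was 1202 to 1245 in libraries labelled knockdown and 934.5 to 963.1 in controls, of which GYPC alone made 57.3% to 57.97% in libraries labelled knockdown and 51.2% to 52.9% in controls.

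The members were mainly K562 genes. With the libraries labelled control of 2 lines compared in the fit of all 24 libraries, all 8 members were higher in K562 than in A549, in H1299 and in THP-1, where 35.6%, 35.8% and 35.7% of 16797 tested genes were higher. The largest adjusted p over these 24 comparisons was 0.00332 (EPB42 against A549, edgeR). The expression filter used all 24 libraries, so GYPB and EPB42 entered these tests only through K562. For GYPB and EPB42, a higher level in K562 was fixed in advance. EPB41 was present in every line, at 221.1 TPM in K562 controls against 26.6 TPM in THP-1, 13.7 TPM in A549 and 9.35 TPM in H1299 controls. ANK1 had 128.0 TPM in K562 controls, which was 18.5 times the 6.92 TPM of H1299 controls, 50.2 times the A549 level and 37.7 times the THP-1 level. GYPC divided the lines differently, with 492.8 TPM in K562 controls and 74.3 TPM in THP-1 controls, while it was listed at 0 in every A549 and H1299 control. GYPB was listed at 0 in all 18 libraries outside K562, and EPB42 in all but 1 A549 control, which had 4 estimated counts.

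**Figure D3:**
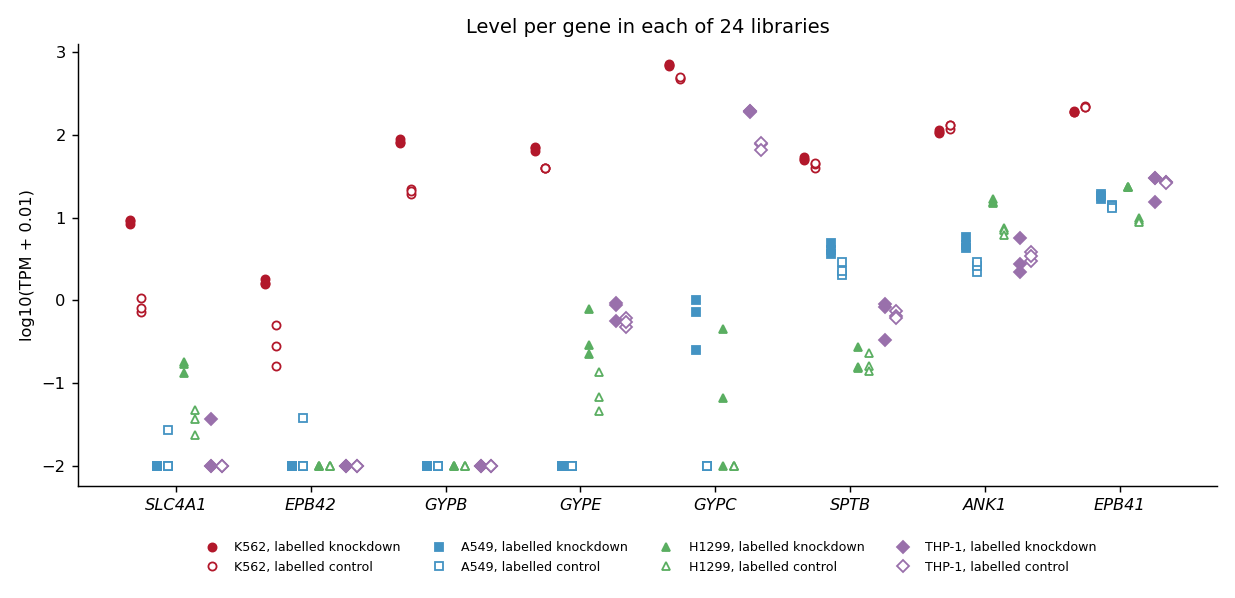
Level of each gene in each of the 24 libraries as log10(TPM + 0.01), so that -2 stands for a value of 0; colours and shapes are cell lines, filled symbols are libraries labelled knockdown and open symbols those labelled control. K562 lies highest for all 8 genes, THP-1 shares GYPC (192.1 TPM in libraries labelled knockdown, 74.3 TPM in those labelled control), and GYPB is at the floor in every library of the other lines.

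In A549, 4 members were tested and all 4 were higher in the libraries labelled knockdown, where 55.6% of 14980 genes passed the test and 27.2% were higher. ANK1 had 12.9, 11.7 and 13.3 CPM in libraries labelled knockdown, against 7.37, 8.59 and 7.43 CPM in those labelled control. The groups did not overlap, and its log2 fold change was 0.66 ± 0.09 (SE, edgeR adjusted p = 6.83e-05), opposite in sign to that in K562. Non-overlap was found for 63.7% of all genes tested in A549. By the deposited estimates, the 156-residue ANK1 form NM_001142445 was at 1.68 TPM in libraries labelled knockdown and 0.428 TPM in controls. NM_020476 and NM_020477, the most abundant forms in K562, were not higher (0.765 and 0.874 TPM labelled knockdown, 0.890 and 1.04 TPM labelled control). NM_000037 and NM_001142446, also long, were higher (0.861 and 0.549 TPM labelled knockdown, 0.00153 and 0.188 TPM labelled control). These levels varied widely between replicates. EPB41 had 41.0, 38.8 and 41.5 CPM in libraries labelled knockdown, against 32.5, 30.3 and 30.5 CPM in controls, and rose by 0.34 ± 0.05 on the log2 scale (SE, edgeR adjusted p = 0.000182). SPTB was at 12.6 to 15.7 CPM in libraries labelled knockdown and 8.70 to 10.4 CPM in controls, a log2 fold change of 0.52 ± 0.10 (SE, edgeR adjusted p = 0.000766). That SPTB call was lost with all 24 libraries in 1 fit (edgeR adjusted p = 0.0652). GYPC appeared at 15, 54 and 40 estimated counts in the libraries labelled knockdown and was listed at 0 in all 3 controls, so the call rests on a trace under 1 CPM and its fitted fold is not given. GYPC met the expression filter only through the libraries labelled knockdown, so it adds no support to the count of 4. All 10 fibroblast marker genes were higher by the test in A549, with a summed level of 148.2 to 451.3 CPM in libraries labelled knockdown and 60.1 to 61.4 CPM in controls. GYPC was at 0.215, 0.608 and 0.512 CPM in replicates 1, 2 and 3 labelled knockdown. Their fibroblast sums were 148.2, 412.0 and 451.3 CPM in the same order, and a link was not tested. The epithelial markers summed to 7579 to 7907 CPM in A549 libraries labelled knockdown and 12430 to 12650 CPM in controls, and the monocyte markers to 709.7 to 729.2 CPM in libraries labelled knockdown and 392.3 to 402.2 CPM in controls. Of 9 epithelial genes tested in A549, 3 were higher and 3 lower, with a median log2 fold change of -0.01. Of 7 monocyte genes tested, 3 were higher and 0 lower. Libraries of the 2 groups were thus apart in all 3 marker sums, and the part of this in the results was not tested.

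In H1299, 5 members were tested and 4 were higher in the libraries labelled knockdown, where 68.9% of 14621 genes passed and 33.4% were higher. EPB41 had 47.1, 47.9 and 46.6 CPM in libraries labelled knockdown, against 27.1, 26.2 and 26.1 CPM in those labelled control. It rose by 0.79 ± 0.04 on the log2 scale (SE, edgeR adjusted p = 1.07e-08), and the groups did not overlap, as was so for 74.7% of all genes tested in H1299. ANK1 had 44.4, 39.1 and 40.9 CPM in libraries labelled knockdown, against 21.3, 24.8 and 24.5 CPM in controls, and rose by 0.77 ± 0.07 on the log2 scale (SE, edgeR adjusted p = 1.30e-06). The other 2 calls were traces, SLC4A1 at 20, 28 and 33 estimated counts in libraries labelled knockdown against 13, 9 and 5 in controls, and GYPE at 12, 47 and 19 in libraries labelled knockdown against 5, 7 and 13 in controls. For SLC4A1 the edgeR adjusted p was 0.0213 and for GYPE 0.0430, and without H1299 knockdown replicate 2 they were 0.0659 for SLC4A1 and 0.299 for GYPE. Both calls were also lost without control replicate 2 or knockdown replicate 3, that of SLC4A1 without control replicate 3 and that of GYPE without control replicate 1. Both traces met the expression filter through the libraries labelled knockdown, where they were higher. They add no support to the count of 4. SPTB, at 0.535, 1.00 and 0.566 CPM in libraries labelled knockdown and 0.755, 1.13 and 0.664 CPM in controls, overlapped between the groups and did not pass (log2 fold change -0.32 ± 0.35 SE, edgeR adjusted p = 0.443). The fibroblast markers summed to 209.5 to 226.4 CPM in H1299 libraries labelled knockdown and 77.4 to 82.5 CPM in controls. The epithelial markers summed to 732.2 to 755.6 CPM in libraries labelled knockdown and 1498 to 1552 CPM in controls, and the monocyte markers to 27.9 to 31.1 CPM in libraries labelled knockdown and 11.0 to 12.3 CPM in controls. By the test, 6 of 9 fibroblast genes were higher and 1 lower. Of 8 epithelial genes tested, 1 was higher and 3 lower, and of 4 monocyte genes 2 were higher and 0 lower. The part of these markers in the results was not tested.

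In THP-1, GYPC was the single member of 5 tested that passed, where 10.2% of 14259 genes passed and 6.30% were higher. It had 100.5, 119.7 and 103.4 CPM in libraries labelled knockdown, against 43.6, 44.2 and 36.5 CPM in those labelled control. The groups were far apart, and the log2 fold change was 1.38 ± 0.11 (SE, edgeR adjusted p = 0.000473). The other 4 overlapped between the groups: EPB41 at -0.13 ± 0.19, SPTB at -0.03 ± 0.31, ANK1 at -0.54 ± 0.29 and GYPE at 0.51 ± 0.40 (log2 ± SE). Non-overlap was found for 35.8% of all genes tested in THP-1. ANK1 passed with all 24 libraries in 1 fit (-0.54, edgeR adjusted p = 0.0385). The library labelled knockdown that stood apart gave the lowest EPB41, SPTB and ANK1 levels of its line (43.3, 1.60 and 3.81 CPM) and the highest GYPC level. Without it the log2 fold change of EPB41 was 0.08 and that of SPTB 0.27, neither past the test. Globin genes, a sign of erythroid RNA, summed to 0.548 to 1.07 CPM in THP-1 libraries labelled knockdown and at most 0.0662 CPM in controls, far under the K562 sums given below.

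**Figure D4:**
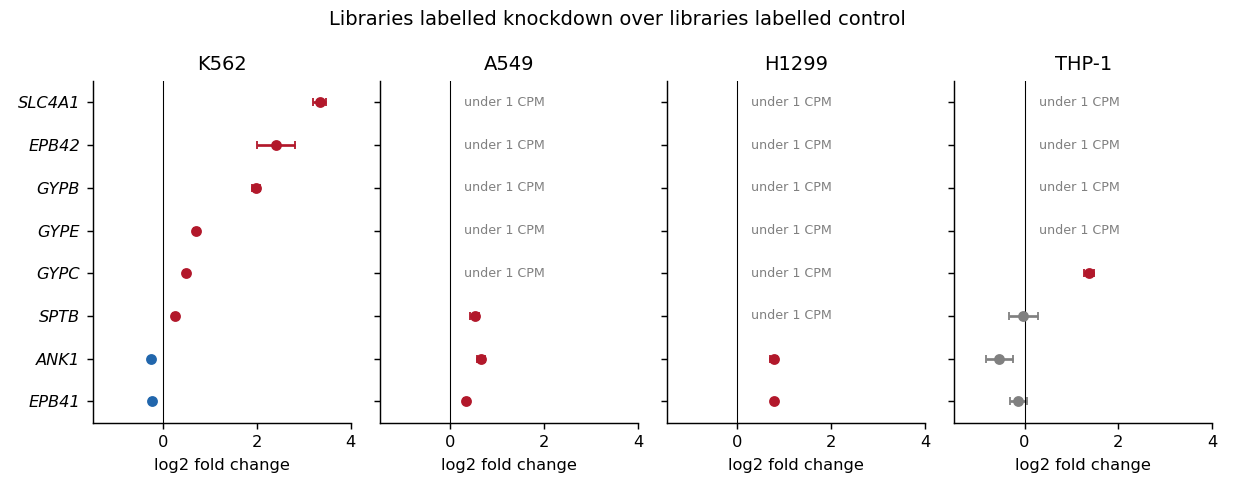
Log2 fold change of libraries labelled knockdown over libraries labelled control (horizontal axis, bars are SE) for each gene in each line; red passed the edgeR test as higher, blue as lower, grey did not pass, and genes averaging under 1 CPM in both groups of a line are marked so. ANK1 and EPB41 are the 2 genes that lie left of 0 in K562 (-0.25 and -0.24) and right of 0 in A549 (0.66 and 0.34) and H1299 (0.77 and 0.79), and GYPC is right of 0 in K562 (0.48) and THP-1 (1.38).

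The responses of K562 and the other lines were compared directly in 1 model of all 24 libraries. The response of ANK1 in K562 was below that in A549 by a log2 difference of -0.92 ± 0.25 (SE, edgeR adjusted p = 0.00707) and below that in H1299 by -1.04 ± 0.25 (SE, edgeR adjusted p = 0.00163). EPB41 showed the same, at -0.59 ± 0.16 against A549 (edgeR adjusted p = 0.00781) and -1.04 ± 0.16 against H1299 (edgeR adjusted p = 2.28e-05). Both genes were lower in K562 and higher in the 2 lung lines by the fits within each line. The difference itself passed the test, where 14.3% and 20.9% of 16797 genes passed in that direction. In the model of 24 libraries the fall within K562 did not pass. It was -0.22 for ANK1 (edgeR adjusted p = 0.333) and -0.21 for EPB41 (edgeR adjusted p = 0.153). The 2 comparisons share the K562 libraries. The ANK1 responses are of gene totals, and the estimated transcripts behind them differed between lines, as given above for A549. Against H1299 the remaining members did not pass by edgeR, with log2 differences ± SE of 1.40 ± 0.78 for SLC4A1 (edgeR adjusted p = 0.159), -1.28 ± 0.54 for GYPE (adjusted p = 0.0654) and 0.56 ± 0.36 for SPTB (adjusted p = 0.228). The difference for SLC4A1 did pass with DESeq2 (1.36, adjusted p = 0.00893) and with limma on log2(FPKM + 1) (1.78, adjusted p = 2.60e-15). That for GYPE passed with DESeq2 (-1.32, adjusted p = 0.0257) and turned to 0.58 with limma on log2(FPKM + 1) (adjusted p = 3.41e-06), and that for SPTB passed with limma (0.30, adjusted p = 0.00305). All 3 genes were under 1 TPM in both groups of H1299, and log2(FPKM + 1) compresses changes at such levels. The limma differences thus carry little of an H1299 response. SLC4A1 and GYPE met the H1299 filter through the libraries labelled knockdown, so their passes with DESeq2 add no support. For SPTB, which was higher in K562 and A549, the difference from A549 did not pass (-0.28, 95% interval -0.90 to 0.34, edgeR adjusted p = 0.562). By the deposited transcript estimates, NM_001355437 took 99.9% of SPTB TPM in K562 controls but 20.45 ± 23.97% in A549 controls (SD, n = 3). In A549 it was at 2.51 TPM in libraries labelled knockdown and 0.555 TPM in controls. NM_001355436 was there at 1.67 TPM in libraries labelled knockdown and 1.825 TPM in controls. It took all SPTB TPM in H1299 and THP-1. The line comparisons of SPTB thus set different transcript mixtures side by side. GYPC against A549 passed too by edgeR, but its size depends on the prior count of the fit, since A549 controls were at 0, and with limma on log2(FPKM + 1) it passed with the opposite sign (0.28, adjusted p = 0.0294). Against THP-1 none of 5 tested members passed by edgeR, where 31.9% of genes did. At an unadjusted p under 0.05 there was 1, DESeq2 gave 0 after adjustment and limma on log2(FPKM + 1) gave 3. Of these 3, SPTB and GYPE averaged under 1 TPM in THP-1. Without THP-1 knockdown replicate 2, EPB41 passed at a log2 difference of -0.27 (edgeR adjusted p = 0.000423). For GYPC the log2 difference of K562 minus THP-1 was -0.87 ± 0.40 (SE, 95% interval -1.66 to -0.08), with an edgeR adjusted p of 0.120.

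Partners of the members in the membrane skeleton were split by direction in K562. Of 17 genes listed and tested, 9 were higher in the libraries labelled knockdown and 6 were lower, with a median log2 fold change of 0.20 against 0.01 over all genes, of which 28.9% were higher and 27.5% lower. MPP1, the palmitoylated protein p55 that binds protein 4.1 and glycophorin C, was at 329.8 ± 10.4 CPM in libraries labelled knockdown and 222.4 ± 3.8 CPM in controls (SD, n = 3 each), a log2 fold change of 0.54 ± 0.04 (SE, edgeR adjusted p = 1.42e-06). Dematin (DMTN), which bundles actin, was at 20.3 ± 1.05 CPM in libraries labelled knockdown and 11.1 ± 0.40 CPM in controls (SD, n = 3 each), and tropomodulin 1 (TMOD1), which caps actin filaments, was at 83.1 ± 6.18 CPM in libraries labelled knockdown and 51.2 ± 5.26 CPM in controls. The log2 fold change was 0.83 ± 0.07 (SE) for DMTN, 0.67 ± 0.08 for TMOD1 and 0.54 ± 0.06 for the protein 4.1 relative EPB41L2. Of the genes that fell, ACTB had the lowest fold change. ACTB, cytoplasmic beta actin, was at 1755 ± 74.1 CPM in libraries labelled knockdown and 3456 ± 120.9 CPM in controls, and fell by 1.01 on the log2 scale. The non-erythroid alpha and beta spectrins SPTAN1 and SPTBN1 had log2 fold changes of -0.90 ± 0.05 and -0.52 ± 0.05, and EPB41L1 of -0.69 ± 0.08. ANK2, another ankyrin, had the highest fold change of the list (3.68 ± 0.29 SE) at 4.22 ± 0.19 CPM in libraries labelled knockdown and 0.328 ± 0.14 CPM in controls, and was named after its values were seen.

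Other proteins of the red cell surface, blood group carriers and transporters among them, were read against the same shares. Of 30 listed, 29 were tested in K562, 14 were higher and 5 lower, with a median log2 fold change of 0.17. With all 24 libraries in 1 fit 10 were higher and 2 lower, where 4075 of all 16797 genes were higher and 2861 lower. BCAM, the Lutheran glycoprotein, was at 11.4 ± 1.62 CPM in libraries labelled knockdown and 4.35 ± 0.44 CPM in controls (SD, n = 3 each), a log2 fold change of 1.36 ± 0.13 (SE). SMIM1, which carries the Vel antigen, was at 23.0 ± 3.76 CPM in libraries labelled knockdown and 10.8 ± 0.54 CPM in controls. CA2, red cell carbonic anhydrase 2, was at 10.4 ± 0.83 CPM in libraries labelled knockdown and 5.17 ± 0.39 CPM in controls. RHCE, a Rh protein gene with a near-identical copy in RHD, was at 7.54 ± 0.93 CPM in libraries labelled knockdown and 3.47 ± 0.44 CPM in controls. RHCE lost its call with all 24 libraries in 1 fit (edgeR adjusted p = 0.249). CD59, an inhibitor of complement, was lower at 125.4 ± 17.6 CPM in libraries labelled knockdown and 191.7 ± 9.01 CPM in controls, and so were, by log2 fold change ± SE, the calcium pump ATP2B4 (-0.33 ± 0.04), the mechanically gated channel PIEZO1 (-0.20 ± 0.05) and CD47 (-0.18 ± 0.04). The calls of CD59, PIEZO1 and CD47 were also lost in the fit of 24 libraries. With limma on log2(FPKM + 1), PIEZO1 (adjusted p = 0.090) and CD47 (adjusted p = 0.0521) did not pass either. The same held with limma on log2(FPKM + 0.1), at adjusted p = 0.102 for PIEZO1 and 0.0559 for CD47. TSPAN33, a tetraspanin at 2.86 ± 0.57 CPM in libraries labelled knockdown and 0.413 ± 0.24 CPM in controls, had the highest fold change of this list (2.78 ± 0.46 SE) and was named after its values were seen.

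**Figure D5:**
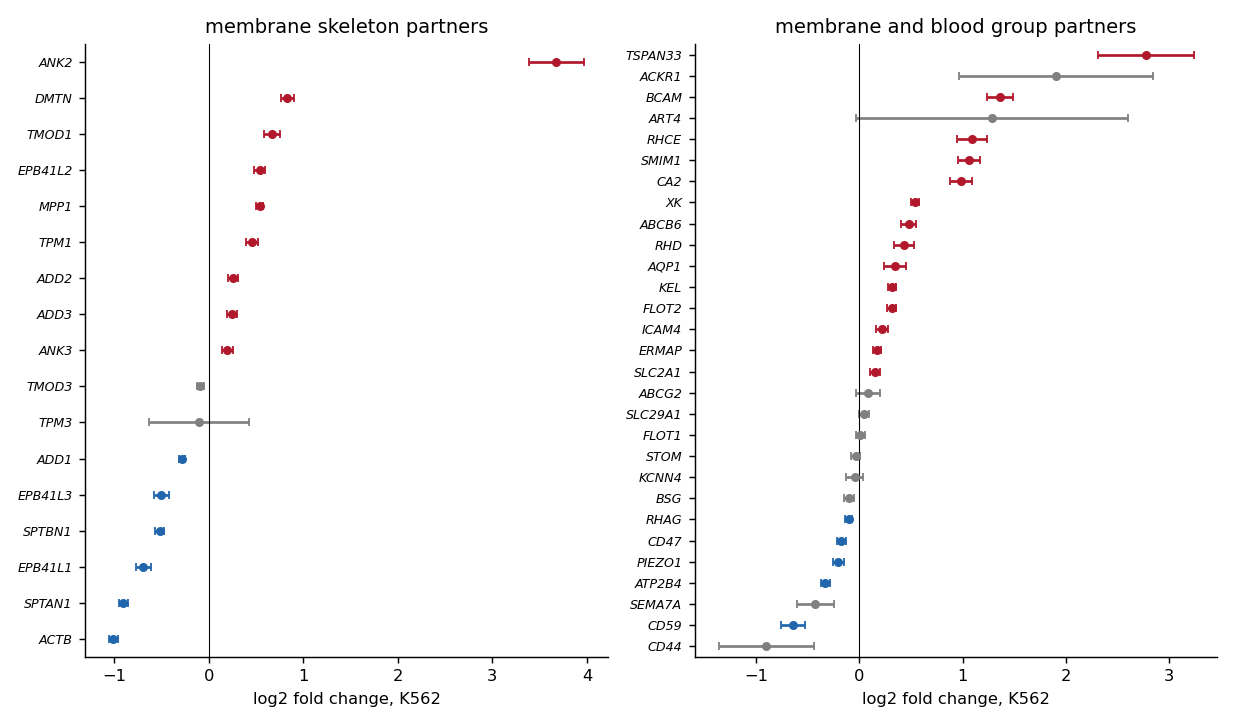
Log2 fold change in K562, libraries labelled knockdown over libraries labelled control (horizontal axis, bars are SE), of the tested genes of the 2 partner lists in order of fold change; red passed the edgeR test as higher, blue as lower and grey did not pass. In the skeleton list 9 genes are red and 6 blue, with ACTB (-1.01) and SPTAN1 (-0.90) at the lower end; in the membrane and blood group list 14 are red and 5 blue.

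The erythroid regulators control the genes of the red cell program. Of 12 listed, 11 were tested in K562, 5 were higher and 1 lower, with a median log2 fold change of 0.02. LMO2, a bridging subunit of the GATA1 and TAL1 complex, was at 82.6 ± 4.91 CPM in libraries labelled knockdown and 33.0 ± 2.84 CPM in controls (SD, n = 3 each), and EPOR, the erythropoietin receptor, was at 36.3 ± 0.84 CPM in libraries labelled knockdown and 23.6 ± 1.86 CPM in controls. ZFPM1, a GATA1 cofactor, was lower, with a log2 fold change of -0.19 ± 0.06 (SE, edgeR adjusted p = 0.0233), a call lost with all 24 libraries in 1 fit, with limma on log2(FPKM + 1) or log2(FPKM + 0.1), and when K562 control replicate 3 or knockdown replicate 2 or 3 was left out. Of 11 genes in the globin list, 10 were tested, 8 were higher and 1 lower, with a median of 0.91. HBE1, embryonic epsilon globin, was at 344.5 ± 3.31 CPM in libraries labelled knockdown and 75.99 ± 2.76 CPM in controls, and HBQ1, theta globin, was at 20.1 ± 0.80 CPM in libraries labelled knockdown and 8.52 ± 0.63 CPM in controls. Summed globin levels were 3842 to 4139 CPM in K562 libraries labelled knockdown and 1966 to 2115 CPM in controls.

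Markers of other cells moved as well in K562. The summed level of 11 megakaryocyte markers was 214.5 to 251.7 CPM in libraries labelled knockdown and 296.8 to 359.5 CPM in controls, with PF4 and SELP at 0 in all 6 libraries. Of 6 megakaryocyte genes tested, 2 were higher and 2 lower. The 10 fibroblast markers summed to 30.2 to 70.0 CPM in libraries labelled knockdown and 12.1 to 18.7 CPM in controls, 5 of 8 tested being higher. The 9 epithelial markers summed to 498.6 to 527.8 CPM in libraries labelled knockdown and 740.1 to 796.5 CPM in controls, and the 12 monocyte markers to 62.1 to 65.4 CPM in libraries labelled knockdown and 86.8 to 91.9 CPM in controls. Single genes did not all follow the sums. Of 9 epithelial genes tested, 2 were higher and 4 lower, with a median log2 fold change of 0.65. Of 7 monocyte genes tested, 2 were higher and 2 lower, with a median of -0.05. The part of these in the member results was not tested. The median over the monocyte markers was 33.3 to 41.98 CPM in THP-1 and no higher than 0.507 CPM in the other lines, although their sum in THP-1, 1000 to 1118 CPM, was not far above that of A549. The epithelial markers did not mark the lung lines in this way, with a median of 31.8 to 34.95 CPM in K562 controls, 30.2 to 30.8 CPM in A549 controls and 4.04 to 4.61 CPM in H1299 controls. Globin genes summed to at most 10.9 CPM outside K562.

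Genes with a pattern like that of 4 members over the 24 libraries were highest in K562. The high K562 level of these members largely fixed that outcome in advance. Likeness was the Pearson correlation of log2(CPM + 0.5), a description in which the libraries of a line share their cells and their scaling. GABRG1 (0.994), CA1 (0.992) and OR6C76 (0.990) were most like SLC4A1. OR6C76 was near the floor, at 0.462 CPM in K562 libraries labelled knockdown and 0.132 CPM in those labelled control. Both values are below the 0.5 added before the log. CA1, red cell carbonic anhydrase 1, had 22.1 CPM in K562 libraries labelled knockdown and 2.18 CPM in those labelled control, a log2 fold change of 3.31 beside the 3.34 of SLC4A1, and at most 0.0685 CPM in any library of the other lines. LDB1 (0.986), ALDH1A2 and DNALI1 were most like ANK1, and PDE4DIP (0.994), ADAMTS14 and MYO3B most like EPB41. RENBP (0.994), STAR and PRDX2, a peroxiredoxin abundant in red cells, were most like GYPC. Some of these genes were not confined to K562, reaching 156.2 CPM (LDB1), 154.1 CPM (PRDX2) and 19.8 CPM (RENBP) in other lines. The response in K562 was not always like that of the member, with a log2 fold change of 0.33 for ALDH1A2 beside -0.25 for ANK1, 0.05 for MYO3B beside -0.24 for EPB41 and 0.04 for PRDX2 beside 0.48 for GYPC.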

How the data were processed

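RNA of 24 libraries was sequenced in pairs after a stranded total RNA kit, per the labels' protocols, and groups were taken from the genotype label. The deposited gene table holds estimated counts, which the authors made with HISAT2, StringTie and the build hg19, per the submitters' processing notes, with no versions. FPKM of genes and TPM of transcripts were deposited too, and TPM were summed here per gene. No source used here states whether reads were counted by strand, so overlapping or antisense genes cannot be told apart. Of 39162 estimated counts from 1 to 25, 69.8% lay at a multiple of 4 or 1 above. A slight majority of the whole numbers in that range are of this kind. The fragments behind the estimated counts are not known, and precision is judged from replicates.

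After rounding, the estimated counts of the 6 libraries of a line were filtered with filterByExpr, scaled by TMM and tested by the robust quasi-likelihood method of edgeR 4.0.16 (R 4.3.3). Differences between lines came from 1 model of 24 libraries and 8 group means. Genes passed at a Benjamini-Hochberg adjusted p under 0.05 over all tested genes. SE were derived from the F statistic. The tests were tried on simulated counts. CPM use TMM scaling over 24 libraries.

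Alternatives were DESeq2 1.42.0 (size factors, Wald test), no filter, at least 1 CPM in 3 libraries, a replicate block, all 24 libraries in 1 fit, limma 3.58.1 on log2(FPKM + 1) or log2(FPKM + 0.1), and the omission of each library. Division of the counts by 4 was added after seeing the data. On counts divided by 4, replicates within groups differed beyond counting noise, with a chi-square per degree of freedom of 8.27 to 69.5. The value depends on this divisor.

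The members and lists were chosen with earlier results of these data known. Some listed genes are not reported here and were left out of the list counts. The naming rule took the 8 members, CBX7, up to 4 highest and 4 lowest passing genes of each partner list with at least 5 CPM in their higher group in K562, up to 2 per direction of regulators and globin genes, and the 3 genes most correlated with each of SLC4A1, ANK1, EPB41 and GYPC. Promoter windows are from the RefSeq table of GRCh38.p14, not from hg19.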

Additional observations from a re-analysis of the deposited data

Results flagged for a closer look

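The responses of ANK1 and EPB41 differed between K562 and the lung lines by a test of the difference itself. It was made with edgeR's quasi-likelihood method (Benjamini-Hochberg adjusted) in the model of 24 libraries. ANK1 was lower in K562 libraries labelled knockdown and higher in those of the lung lines, and the difference in log2 fold change was -0.92 for K562 minus A549 (adjusted p = 0.00707) and -1.04 for K562 minus H1299 (adjusted p = 0.00163). EPB41 followed the same pattern, with differences of -0.59 for K562 minus A549 (adjusted p = 0.00781) and -1.04 for K562 minus H1299 (adjusted p = 2.28e-05). The fall of both genes within K562 passed with the K562 libraries alone but not in the model of 24 libraries. The ANK1 values are gene totals, and the estimated transcripts behind them differed between lines. In each of the 3 lines, all 3 libraries labelled knockdown lay on 1 side of the controls for both genes, as was so for 64.6% of all tested genes in K562, 63.7% in A549 and 74.7% in H1299.

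GYPC passed the same test for K562 minus A549 at -7.94 (edgeR adjusted p = 0.00101). It met the A549 expression filter only through the libraries labelled knockdown, so this call is no support for a difference. A549 controls were listed at 0, so the size depends on the prior count added before taking logs and is no bound, and A549 libraries labelled knockdown held 15 to 54 estimated counts. The direction depends on the scale too: on log2(FPKM + 1) the difference was 0.28 and passed the other way (limma adjusted p = 0.0294).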

How the results depend on the processing

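In K562, all 8 members kept their direction under each alternative that gave a value, and 3 of 8 passed with all 24 libraries in 1 fit. The other settings, leaving out each library included, gave counts within 1.5 times the reported one. In H1299 the count of 4 went to 2 with at least 1 CPM in 3 libraries, counts divided by 4, either limma setting and the replicate block, and was 2 to 4 without single libraries. In THP-1 the count of 1 went to 2 with all 24 libraries in 1 fit. For K562 minus H1299 the count of 2 went to 4 with DESeq2 and 5 with limma on log2(FPKM + 1). The added calls were of genes under 1 TPM in H1299. For K562 minus THP-1 the count of 0 went to 1 with counts divided by 4, 3 with limma and 1 with the replicate block, and was 0 to 1 without single libraries, 1 without THP-1 knockdown replicate 2. GYPC passed there with the block (edgeR adjusted p = 0.000825).

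Signs turned in several results. Without single libraries, EPB41 in K562 minus THP-1 ran from -0.27 to 0.04 (0.03 without THP-1 knockdown replicate 3), EPB41 in THP-1 from -0.25 to 0.08, and SPTB in THP-1 from -0.26 to 0.27 (0.06 without control replicate 1). The upper values of the last pair came without THP-1 knockdown replicate 2, and so did the -0.27, which passed by edgeR (adjusted p = 0.000423). On log2(FPKM + 1), where levels under 1 are compressed, GYPC in K562 minus A549, which passed by edgeR at -7.94, was 0.28 and passed in the opposite direction (limma adjusted p = 0.0294). GYPE in K562 minus H1299, which did not pass by edgeR, was 0.58 (limma adjusted p = 3.41e-06). The cause of the changes was not tested. Of the single genes and lists under all alternatives, 1066 values kept their side of the threshold, 36 lost and 16 gained a call.

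Same-numbered libraries of the 2 arms had correlated deviations of -0.06 to 0.04, so the replicate numbers share only a number, and the block kept 8 calls in K562. With the block SLC4A1 passed in K562 minus H1299 (edgeR adjusted p = 0.0442), and the calls of ZFPM1 in K562 (0.0563) and of SLC4A1 (0.0572) and GYPE (0.0931) in H1299 were lost. Values of EPB42 and of traces under 1 CPM are limited by depth.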
